A study of Mus musculus with 24 samples.

Results

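Axon guidance genes of the Eph, Slit and netrin systems were followed in guts of mouse embryos that lacked Ret, Sema3d or both. The 36 genes were taken by symbol: 9 EphA receptors, 5 EphB receptors, 5 ephrin-A ligands, 3 ephrin-B ligands, 3 Slits, 3 Robo receptors, 2 netrins and 6 netrin receptors. All 36 were found among the 26260 genes of the table fitted over every gut, and in the 3 tables that compare one null genotype with wildtype. The guts were whole and came from embryonic day 12.5, from stock of mixed C57BL/6, 129/Sv and C3H origin. There were 6 guts each (3 female, 3 male) of the genotypes Ret-Sema3d double null, Ret null, Sema3d null and wildtype, 24 in all. The labels used here do not say how the null alleles were made. The series is titled as a test of a Ret and Sema3d genetic interaction in enteric nervous system development.

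Ret is a receptor tyrosine kinase that neural crest cells use to sense GDNF-family ligands as they colonise the gut, and Sema3d is a secreted semaphorin. Eph receptors are receptor tyrosine kinases whose ephrin ligands sit on neighbouring cells, so signalling runs at cell contacts and in both directions. Slits are secreted and mostly repel cells through Robo receptors, while netrins attract through Dcc and neogenin or repel through Unc5 receptors. In the mouse gut, netrins and Dcc are known for the inward migration of crest cells, and ephrin-B and EphB proteins for sorting cells in the epithelium. Ephrin-B2 and EphB4 are also known for marking arteries and veins.

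The deposited values are model fits per gene, so neither values per gut nor library depths are known here. Whether single guts of 2 genotypes overlap therefore cannot be seen. A level below is the fitted normalised count of a genotype, with no error of its own, and a change is the log2 coefficient of a null genotype over wildtype. The error after ± is a standard error derived from the deposited deviances. A gene was called at a deposited adjusted p below 0.05. Ret was at a level of 1.15 in double null, 4.72 in Ret null, 1328 in Sema3d null and 1523 in wildtype guts. Sema3d was at 396 in double null, 677 in Ret null, 389 in Sema3d null and 815 in wildtype guts, so its transcript was reduced but not lost. The 12 enteric neuron markers summed to 560 in double null, 571 in Ret null, 3236 in Sema3d null and 3267 in wildtype guts, and all 12 fell in double null and Ret null guts per the authors' deposited tables. The lowest of them was at 21.0 in wildtype guts. The 10 markers of crest progenitors and glia summed to 1766 in double null, 1681 in Ret null, 4205 in Sema3d null and 4699 in wildtype guts, with S100b below 1. The smooth muscle, mesenchyme and epithelium lists, which stand for the labelled tissue, had all their genes detected in wildtype guts and 0 genes called in the 3 comparisons with wildtype.

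Beside this loss of neuronal transcripts, 2 of the 36 guidance genes were called in any comparison. The ephrins Efna4 and Efnb2, 2 of the 36 genes (5.56%), were higher in Ret null than in wildtype guts per the authors' deposited table, and 0 were lower. Over all genes there, 0.386% were called higher and 2.27% lower. Among genes with a level of at least 50, which 29 of the 36 reached in wildtype guts, 0.694% were called higher. In whole gut RNA, fewer cells of a type and less RNA per cell cannot be told apart. At an unadjusted p under 0.05 there were 8 of the 36 in Ret null guts, 6 higher and 2 lower, or 22.2%, against 8.43% of all genes. Of the 29 at the higher level it was 5, or 17.2%, against 12.3% of genes at that level.

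No guidance gene was called in double null guts (0 of 36) by the authors' deposited table, where 0.231% of all genes were called higher and 1.87% lower. At an unadjusted p under 0.05 there were 11, 10 higher and 1 lower, or 30.6%, against 6.71% of all genes. All 10 higher ones had a wildtype level of at least 50, which makes 34.5% of the 29, against 9.63% of genes at that level. The median log2 change of the 29 was 0.09 in double null guts, beside 0.01 for all genes at that level in the authors' deposited table. Of the 29, 23 coefficients were positive (79.3%), against 53.0% for all genes at that level. Most tissue marker lists leaned the same way in double null guts. Positive coefficients were 10 of 10 endothelial, 7 of 7 mesenchyme, 5 of 5 mesothelium, 9 of 10 epithelium and 6 of 7 smooth muscle. The medians of these lists by the authors' deposited table were 0.27, 0.08, 0.17, 0.06 and 0.05 in that order. The macrophage list had 3 of 7 positive and a median of -0.07. The part of these tissues in the values of the 29 was not tested. In Ret null guts the median of the 29 was 0.05 in the authors' deposited table, beside 0.01 for all such genes, and 20 were positive (69.0%), against 53.9%. Centred on the median of all such genes, Efna5, Ephb6 and Unc5d turn negative there, which leaves 17. All 3 null genotypes were set against the same 6 wildtype guts.

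Sema3d null guts likewise had 0 of the 36 called by the authors' deposited table, where 0.0404% of all genes were called. Efna1 alone had an unadjusted p under 0.05, against 4.53% of all genes and 6.89% of those with a level of at least 50. The median log2 change of the 29 was -0.03 in Sema3d null guts per the authors' deposited table, and 12 of the 29 were positive (41.4%), against 50.9% of genes at that level. The interaction term asks whether the double null change differs from the sum of both single null changes. It called 0 of the 36, against 0.164% of all genes in the authors' deposited table. At an unadjusted p under 0.05 there were 4 of the 36, against 6.79% of all genes, and 2 of the 29, against 10.5% of genes at that level.

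**Figure D1:**
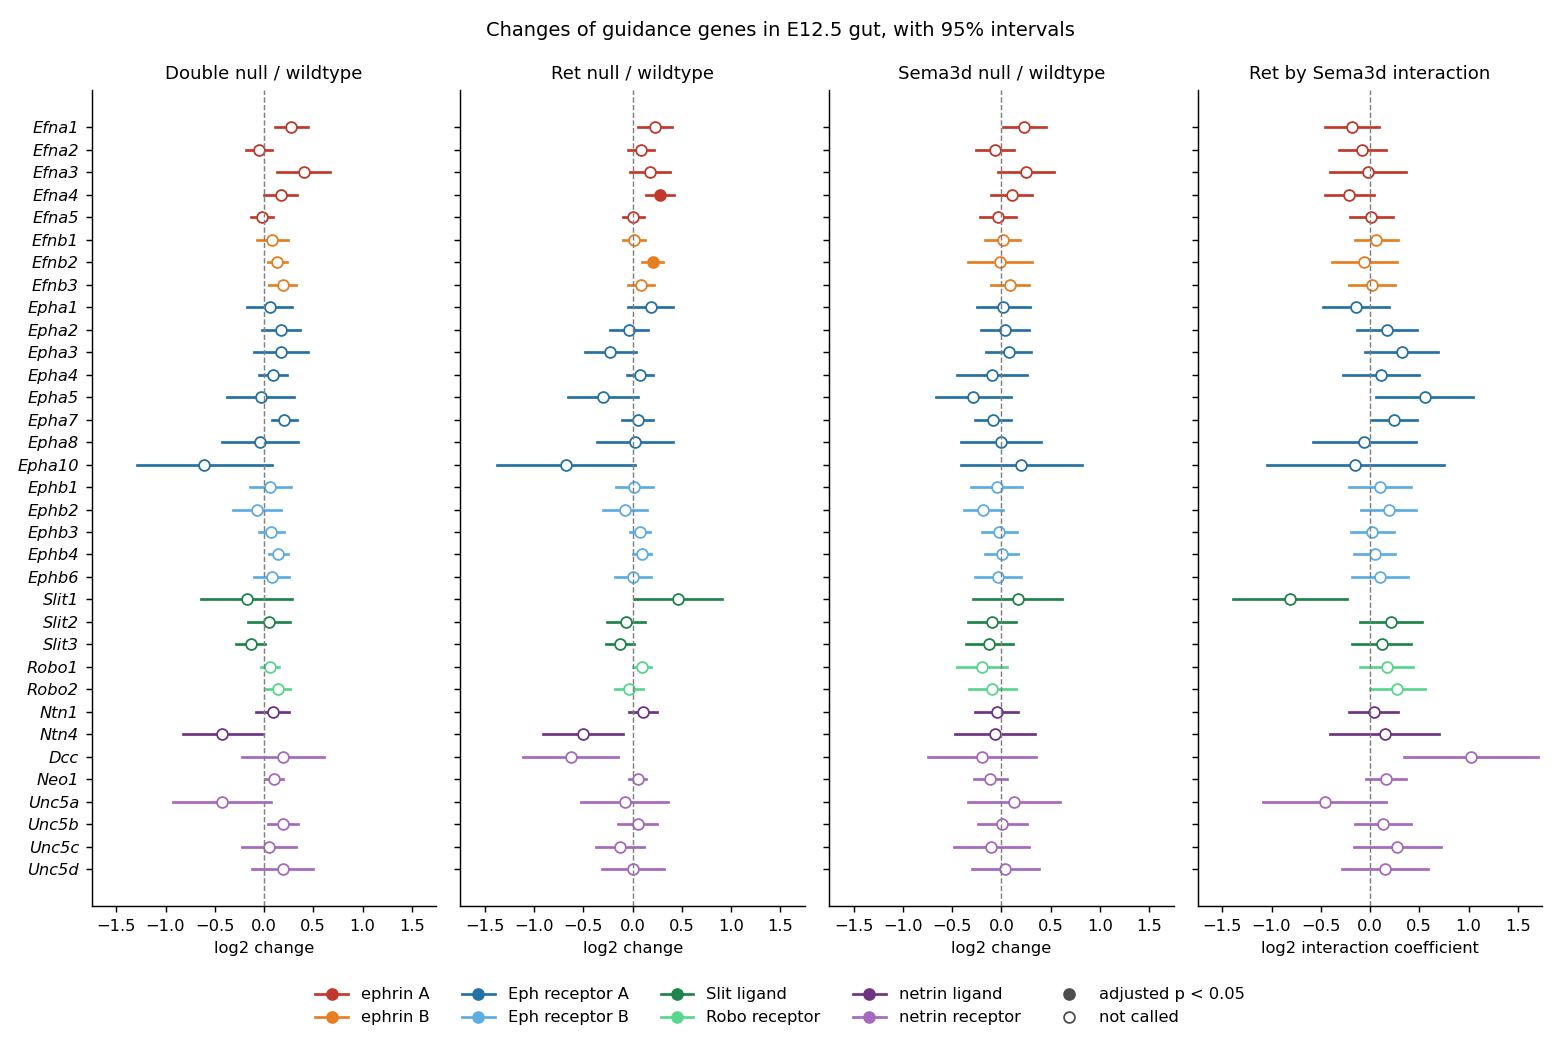
Log2 change of 34 guidance genes in double null, Ret null and Sema3d null guts against wildtype, and the log2 interaction coefficient, each with its 95% interval. Genes run down by role, and filled points mark the 2 calls, Efna4 and Efnb2 in Ret null guts. Epha6 and Robo3 are left out for their low wildtype levels, 2.91 and 0.461.

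For genes with a level of at least 50, the intervals bounded the size of change in whole gut RNA. The bound used, 0.5 log2 units, is wider than both called changes, 0.28 for Efna4 and 0.20 for Efnb2 in Ret null guts. Among the 29 genes with a level of at least 50, the 95% interval lay within 0.5 log2 units of 0 for 27 in double null guts, with Efna3 and Unc5a outside. In Ret null guts it was 27, with Epha5 and Unc5a outside. In Sema3d null guts it was 26, with Epha5, Efna3 and Unc5a outside, and for the interaction 22. The median derived error of the 29 was 0.09 for double null, 0.08 for Ret null, 0.12 for Sema3d null and 0.15 for the interaction on the log2 scale.

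The levels set the genes apart far more than the genotypes did. Divided by exon length, wildtype levels ran from 594 normalised counts per kb for Ephb4 to 0.0901 for Robo3. Ephb4 was followed by its ligand Efnb2 at 564, the netrin and RGM receptor Neo1 at 547 and the Slit receptor Robo1 at 479 per kb. The lowest, after Robo3, were Epha6 at 0.741, Dcc at 3.22, Slit1 at 5.29 and Epha5 at 5.41 per kb. Thus the netrin receptor Neo1 and the Slit receptor Robo1 were high, while their relatives Dcc and Robo3 were low in the same wildtype guts. The 7 genes under a wildtype level of 50 were Epha6, Epha8, Epha10, Slit1, Robo3, Ntn4 and Dcc.

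**Figure D2:**
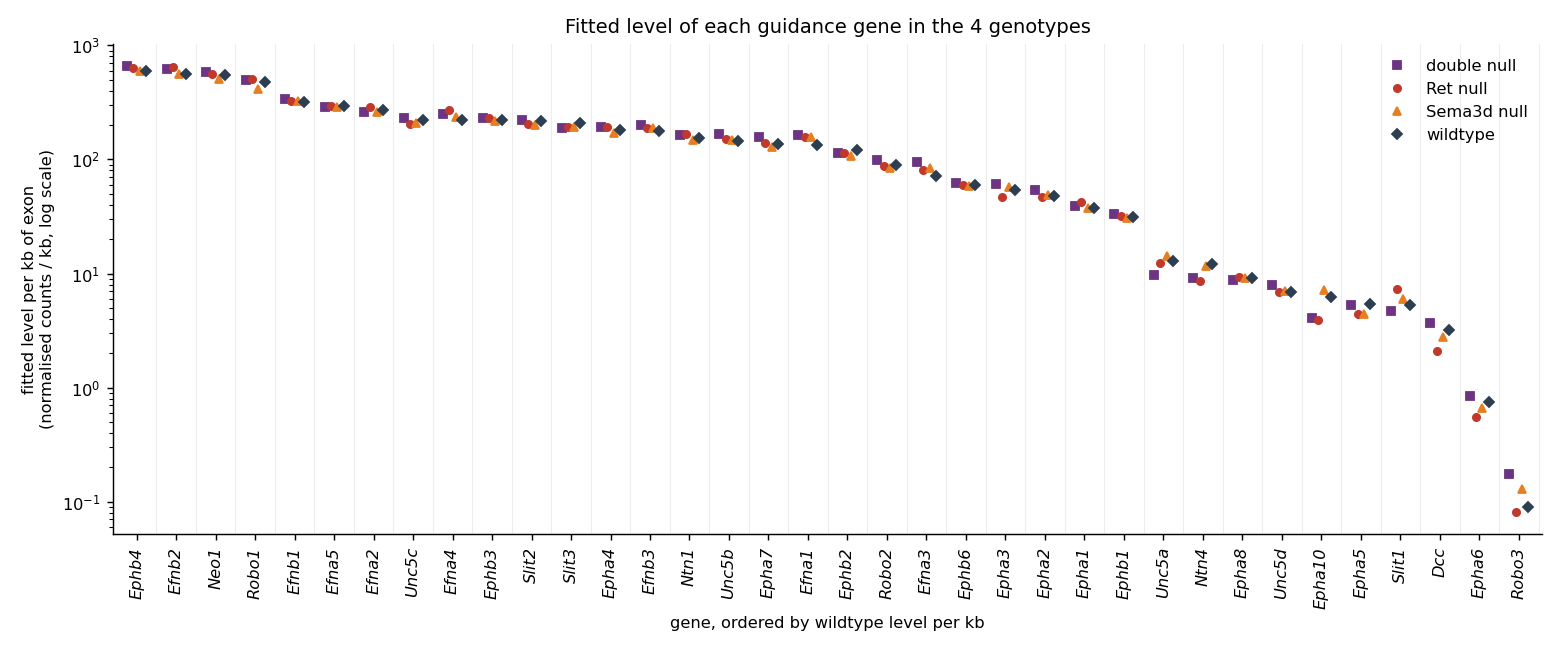
Fitted level per kb of exon (normalised counts, log scale) of the 36 genes in double null, Ret null, Sema3d null and wildtype guts, ordered by the wildtype level. The spread between genes, from 594 per kb for Ephb4 to 0.0901 for Robo3 in wildtype guts, exceeds the spread between genotypes of any 1 gene.

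The 2 called genes are ligands of different classes. Efna4 encodes a GPI-anchored ephrin and Efnb2 a transmembrane ephrin. Their promoters, 250 bases before to 50 after the RefSeq start on GRCm38.p6, are printed because these were the called members. Efna4 (minus strand) is at chr3:89337979-89338278 and Efnb2 (minus strand) at chr8:8661193-8661492. Capitals mark matches, on either strand, to the GC box GGGCGG, the CCAAT box CCAAT, the TATA box TATAAA and the RBPJ core TGGGAA; no marked match overlaps another.
Efna4: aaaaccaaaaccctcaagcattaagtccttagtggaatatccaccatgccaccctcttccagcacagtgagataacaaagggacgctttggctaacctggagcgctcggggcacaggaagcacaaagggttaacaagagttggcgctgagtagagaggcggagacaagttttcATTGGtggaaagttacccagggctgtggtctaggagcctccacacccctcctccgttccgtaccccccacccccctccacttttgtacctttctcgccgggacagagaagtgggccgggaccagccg
Efnb2: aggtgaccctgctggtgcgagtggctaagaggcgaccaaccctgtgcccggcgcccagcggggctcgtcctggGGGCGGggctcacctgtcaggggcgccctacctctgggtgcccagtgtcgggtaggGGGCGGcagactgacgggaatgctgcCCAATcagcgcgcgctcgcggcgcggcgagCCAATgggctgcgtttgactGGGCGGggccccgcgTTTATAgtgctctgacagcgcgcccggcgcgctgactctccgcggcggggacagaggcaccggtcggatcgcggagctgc

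The Efna4 window held 1 CCAAT match, on the opposite strand, and none of the other 3 motifs. The Efnb2 window held 3 GC boxes, 2 CCAAT matches and 1 TATA match on the opposite strand. Of 32851 RefSeq promoter windows of the same length, 35.7% held a GC box, 37.4% a CCAAT match, 13.6% a TATA match and 25.6% an RBPJ core. Windows were matched for 31 of the 36 guidance genes, 36 windows in all, of which 72.2% held a GC box, 38.9% a CCAAT match, 5.56% a TATA match and 22.2% an RBPJ core. GC content was 55.7% for Efna4 and 72.3% for Efnb2, with a median of 65.2% over the windows of the guidance genes and 52.7% over all windows. These letters describe the windows and were tied to no change of the genes.

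Efna4 (ENSMUSG00000028040.7) had a fitted level of 398.7 in double null, 430.3 in Ret null, 380 in Sema3d null and 354.9 in wildtype guts. Relative to wildtype the fitted level was 112.4% in double null, 121.3% in Ret null and 107.1% in Sema3d null guts. All 3 null genotypes were above wildtype, and Ret null was the highest. The log2 change in Ret null guts was, per the authors' deposited table, 0.28 ± 0.07 (95% interval 0.13 to 0.42), with DESeq p 0.000217 and adjusted p 0.0106. The log2 change was 0.17 ± 0.09 in double null guts (adjusted p 0.736) and 0.10 ± 0.11 in Sema3d null guts (adjusted p 1.000), per the authors' deposited tables. The interaction coefficient was -0.21 ± 0.13 in the authors' deposited table (adjusted p 0.823). The gene overlaps an antisense transcript, 4731419I09Rik, in GENCODE; the libraries were stranded, but the sources used here do not say whether reads were counted by strand.

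Efnb2 (ENSMUSG00000001300.16) had a fitted level of 2965 in double null, 3110 in Ret null, 2680 in Sema3d null and 2703 in wildtype guts. That is 109.7% of wildtype in double null, 115.1% in Ret null and 99.2% in Sema3d null guts. Both genotypes without Ret were above wildtype, and Sema3d null guts stood next to wildtype. For Ret null guts the authors' deposited table gives a log2 change of 0.20 ± 0.06 (95% interval 0.09 to 0.31), with DESeq p 0.000242 and adjusted p 0.0117. The values were 0.13 ± 0.05 in double null guts (p 0.00578, adjusted p 0.200) and -0.01 ± 0.17 in Sema3d null guts (adjusted p 1.000), per the authors' deposited tables. The interaction coefficient was -0.06 ± 0.17 in the authors' deposited table. Both calls, Efna4 and Efnb2, missed a stricter adjusted p of 0.01 in Ret null guts.

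Endothelial markers were set beside Efnb2, since arteries express it. In Ret null guts 0 of 10 endothelial markers were called in the authors' deposited table, and their median log2 change was 0.04. Their summed level was 8079 in double null, 6738 in Ret null, 7432 in Sema3d null and 6716 in wildtype guts, and the lowest of them was at 198 in wildtype guts. In double null guts 6 of 10 (Pecam1, Cdh5, Tie1, Kdr, Flt1 and Esam) rose in the authors' deposited table, with a median of 0.27 over the 10. Sema3d null guts had 0 of 10 called and a median of 0.21 by the authors' deposited table. The part of endothelium in the values of the guidance genes was not tested.

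Among the other A-class ephrins, the neighbours Efna1 and Efna3 came nearest to a call. Efna1 had a level of 298 in double null, 288 in Ret null, 289 in Sema3d null and 246 in wildtype guts. The 3 null genotypes lay close together and above wildtype. Its log2 change was 0.28 ± 0.09 in double null (p 0.00135, adjusted p 0.0626), 0.23 ± 0.09 in Ret null (p 0.00837, adjusted p 0.205) and 0.23 ± 0.11 in Sema3d null guts (p 0.0384, adjusted p 1.000), per the authors' deposited tables. Adjusted over genes with a level of at least 50, or of at least 10, the double null value passed 0.05, which made Efna1 the 1 gene so called. Efna3 had a level of 223 in double null, 191 in Ret null, 200 in Sema3d null and 169 in wildtype guts, again lowest in wildtype. Its log2 change was 0.40 ± 0.14 in double null (p 0.00345, adjusted p 0.137), 0.18 ± 0.10 in Ret null (p 0.0821) and 0.25 ± 0.14 in Sema3d null guts (p 0.0844), per the authors' deposited tables. Efna2 and Efna5 stayed near 0: in the authors' deposited tables they lay between -0.06 and 0.08 over the 3 comparisons with wildtype, and the interval of Efna5 in Ret null guts was -0.10 to 0.11.

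Efna1, Efna3 and Efna4 are neighbours on the minus strand of chromosome 3 (GRCm38). Efna1 lies at 89271733 to 89281142, Efna3 at 89313899 to 89322965 and Efna4 at 89333390 to 89338028, a span of 66.3 kb. The 9 other genes with a level of at least 50 within 50 kb of this span gave no call in the 3 comparisons in the authors' deposited tables. Their median log2 change in the authors' deposited tables was -0.02 in double null and 0.01 in Ret null guts, with 4 and 5 of 9 positive. In Sema3d null guts the neighbours had a median of 0.15 per the authors' deposited table, with 9 of 9 positive and a range of 0.05 to 0.24 that held Efna1 and Efna4, with Efna3 just above it. Adam15, whose start lies nearest to that of Efna4 among these 9, was the 1 neighbour with an unadjusted p under 0.05 in double null guts, at 0.18 ± 0.08 in the authors' deposited table. No test set the ephrins against their neighbours.

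**Figure D3:**
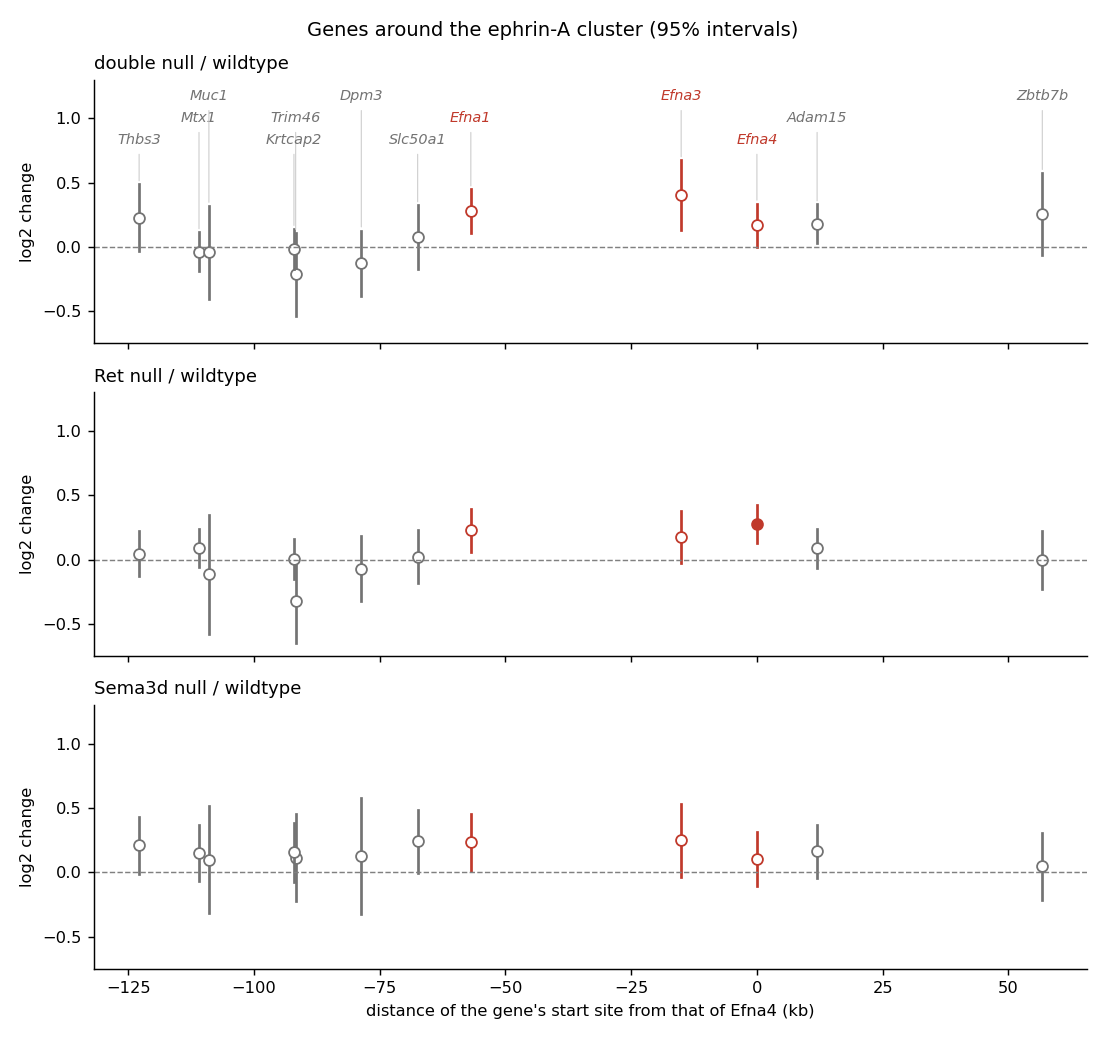
Log2 change with 95% interval of genes around the ephrin-A cluster, by distance of each start site from that of Efna4 (kb), in double null, Ret null and Sema3d null guts against wildtype. The ephrins (red) are positive in all 3 panels, while the 9 neighbours (grey) have medians of -0.02, 0.01 and 0.15 in the same order; the filled point is the call of Efna4.

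The remaining B-class ephrins were not called. Efnb3, a transmembrane ephrin of nervous tissue, had a level of 640 in double null, 596 in Ret null, 595 in Sema3d null and 562 in wildtype guts. Its log2 change in double null guts was 0.19 ± 0.07 in the authors' deposited table (p 0.00682, adjusted p 0.227), and 0.09 ± 0.07 in Ret null and 0.09 ± 0.10 in Sema3d null guts in their tables. Efnb1, which lies on the X chromosome, had changes against wildtype between 0.01 and 0.09 in the authors' deposited tables. Over the 8 ephrins, coefficients in Ret null guts ran from 0.01 to 0.28 by the authors' deposited table, and 7 of 8 were positive after centring on the median of all genes with a level of at least 50, with Efna5 below 0. In double null guts 6 of 8 were positive and in Sema3d null guts 5 of 8, centred or not.

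None of the 14 Eph receptors was called in any of the authors' deposited tables. Ephb4, the receptor of ephrin-B2 on veins, had a level of 2865 in double null, 2774 in Ret null, 2595 in Sema3d null and 2595 in wildtype guts. Its log2 change was 0.14 ± 0.05 in double null guts (95% interval 0.05 to 0.24, p 0.00319, adjusted p 0.129) and 0.10 ± 0.05 in Ret null guts (p 0.0393, adjusted p 0.532) by the authors' deposited tables. Beside it, the endothelial list had the median of 0.27 in double null guts given above and 0.04 in Ret null guts. In Sema3d null guts the change of Ephb4 was 0.003 ± 0.087, beside an endothelial median of 0.21. Ephb2, a receptor of the epithelium, was highest in wildtype, with a level of 1253 in double null, 1250 in Ret null, 1159 in Sema3d null and 1319 in wildtype guts. Its change in Sema3d null guts was -0.18 ± 0.10 per the authors' deposited table (p 0.0715). Ephb1, Ephb3 and Ephb6 lay between -0.05 and 0.08 in the authors' deposited tables of the 3 comparisons with wildtype.

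Among EphA receptors, Epha7 was the one with the smallest p. It had a level of 1184 in double null, 1064 in Ret null, 967 in Sema3d null and 1027 in wildtype guts, so the double null guts were highest and the Sema3d null guts lowest. The log2 change was 0.20 ± 0.07 in double null (95% interval 0.08 to 0.33, p 0.00179, adjusted p 0.0801), 0.05 ± 0.08 in Ret null and -0.09 ± 0.09 in Sema3d null guts, per the authors' deposited tables. The interaction coefficient was 0.24 ± 0.12 in the authors' deposited table (p 0.0410, adjusted p 0.707).

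Epha5 was low, with 53.4 in double null, 44.3 in Ret null, 44.8 in Sema3d null and 54.7 in wildtype guts. Both single nulls lay below wildtype, and the double null lay beside it. Its change was -0.03 ± 0.17 in double null, -0.30 ± 0.18 in Ret null (p 0.0973) and -0.28 ± 0.20 in Sema3d null guts (p 0.144), with an interaction coefficient of 0.56 ± 0.25 (p 0.0264, adjusted p 0.637), per the authors' deposited tables. Epha3, with a level of 385 in double null, 293 in Ret null, 360 in Sema3d null and 342 in wildtype guts, was lowest in Ret null guts. Its change there was -0.23 ± 0.13 in the authors' deposited table (p 0.0843, adjusted p 0.731), and its interaction coefficient was 0.32 ± 0.19 (p 0.0910). Epha4, which binds ephrins of both classes, ranged with Epha1, Epha2 and Epha8 from -0.09 to 0.18 in the authors' deposited tables of the 3 comparisons with wildtype. Epha10, at a wildtype level of 15.7, had -0.61 ± 0.35 in double null and -0.68 ± 0.36 in Ret null guts by the authors' deposited tables, neither called; it is named after its values were seen. At a wildtype level of 2.91, the change of Epha6 had a derived error of 0.71 or more in the authors' deposited tables, so no direction can be read. Epha1 and Ephb6 share chromosome 6 with Ret, at 75.8 and 76.5 Mb from it, and neither had an unadjusted p under 0.05. Slit2, Epha5 and Ephb4 share chromosome 5 with Sema3d, at 35.4, 71.5 and 124.8 Mb from it. Of these, Ephb4 had an unadjusted p under 0.05 in double null and Ret null guts, and Epha5 for the interaction. The part of these positions in the changes was not tested.

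No Slit or Robo gene was called. Slit2, a secreted repellent, had a level of 2237 in double null, 2065 in Ret null, 2022 in Sema3d null and 2158 in wildtype guts, and its changes against wildtype lay between -0.09 and 0.05 in the authors' deposited tables. Slit3 had a level of 993 in double null, 997 in Ret null, 1000 in Sema3d null and 1090 in wildtype guts. It was below wildtype in all 3 null genotypes by nearly the same amount: the log2 change was -0.13 ± 0.07 in double null (p 0.0749), -0.13 ± 0.07 in Ret null (p 0.0714) and -0.12 ± 0.12 in Sema3d null guts by the authors' deposited tables. The scarce Slit1 had a level of 27.4 in double null, 42.6 in Ret null, 34.9 in Sema3d null and 30.9 in wildtype guts. Its log2 change was -0.18 ± 0.23 in double null, 0.46 ± 0.23 in Ret null (p 0.0432, adjusted p 0.557) and 0.16 ± 0.23 in Sema3d null guts, per the authors' deposited tables. The interaction coefficient of Slit1 was -0.81 ± 0.29 in the authors' deposited table (p 0.00604, adjusted p 0.405), a gene named after its values were seen.

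Robo1, the most abundant Slit receptor per kb, had a level of 3776 in double null, 3864 in Ret null, 3144 in Sema3d null and 3620 in wildtype guts. Sema3d null guts were lowest. Its log2 change was 0.06 ± 0.05 in double null, 0.09 ± 0.05 in Ret null (p 0.0471, adjusted p 0.579) and -0.20 ± 0.13 in Sema3d null guts (p 0.123), per the authors' deposited tables. Robo2 had a level of 881 in double null, 776 in Ret null, 748 in Sema3d null and 797 in wildtype guts, so the double null was highest. Its change was 0.14 ± 0.06 in double null guts (p 0.0176, adjusted p 0.429) and -0.04 ± 0.07 in Ret null guts by the authors' deposited tables, with an interaction coefficient of 0.28 ± 0.14 (p 0.0545). Robo3, the divergent Robo receptor of commissural neurons, was under a level of 1 in every genotype, and its change could not be measured.

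Of the netrins, the secreted attractant Ntn1 had a level of 1003 in double null, 1016 in Ret null, 910 in Sema3d null and 945 in wildtype guts. Its changes against wildtype lay between -0.05 and 0.10 in the authors' deposited tables. Ntn4, a netrin of basement membranes, was low, with 33.0 in double null, 31.3 in Ret null, 42.2 in Sema3d null and 44.4 in wildtype guts. Both genotypes without Ret lay below wildtype: the log2 change was -0.42 ± 0.20 in double null (p 0.0385, adjusted p 0.666) and -0.50 ± 0.21 in Ret null guts (p 0.0158, adjusted p 0.311) by the authors' deposited tables. It was named after its values were seen.

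Dcc, the netrin receptor known for crest cell migration in the gut, also passed no threshold on the adjusted p. Its level was 38.1 in double null, 21.5 in Ret null, 29.0 in Sema3d null and 33.2 in wildtype guts. Ret null guts were lowest, at 64.6% of wildtype, and double null guts highest, at 114.5%. The change was 0.20 ± 0.21 in double null, -0.63 ± 0.24 in Ret null (95% interval -1.11 to -0.15, p 0.0102, adjusted p 0.231) and -0.20 ± 0.28 in Sema3d null guts, per the authors' deposited tables. The interaction coefficient was 1.02 ± 0.35 in the authors' deposited table (95% interval 0.34 to 1.70, p 0.00317, adjusted p 0.317), and the choice to name Dcc was made after its values were seen. The enteric neuron markers beside it had medians of -3.80 in double null and -3.69 in Ret null guts by the authors' deposited tables.

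Neo1, the abundant relative of Dcc, had a level of 4322 in double null, 4179 in Ret null, 3719 in Sema3d null and 4034 in wildtype guts. Its changes were small and the best measured of the set: 0.10 ± 0.05 in double null (p 0.0324, adjusted p 0.613), 0.05 ± 0.04 in Ret null (95% interval -0.04 to 0.14) and -0.11 ± 0.09 in Sema3d null guts (p 0.182) by the authors' deposited tables. The interaction coefficient of Neo1 was 0.17 ± 0.10 in the authors' deposited table (p 0.108). Unc5b, a repulsive netrin receptor also found on endothelium, had a level of 980 in double null, 891 in Ret null, 864 in Sema3d null and 860 in wildtype guts. Its change in double null guts was 0.19 ± 0.08 per the authors' deposited table (p 0.0157, adjusted p 0.398), beside the rise of 6 of 10 endothelial markers there. In Ret null guts Unc5b had 0.05 ± 0.10, beside an endothelial median of 0.04. In Sema3d null guts Unc5b had 0.01 ± 0.13, beside an endothelial median of 0.21. Unc5c had a level of 2235 in double null, 1985 in Ret null, 2010 in Sema3d null and 2163 in wildtype guts and changes against wildtype between -0.13 and 0.05 in the authors' deposited tables. Unc5a, at 39.1 in double null, 49.3 in Ret null, 56.7 in Sema3d null and 51.9 in wildtype guts, had -0.42 ± 0.25 in double null guts by the authors' deposited table (p 0.0959). Both Unc5a and Unc5b were named after their values were seen. Unc5d lay between 0.00 and 0.19 in the authors' deposited tables of the comparisons with wildtype.

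Across the roles, the interaction coefficient was positive for 26 of the 36 genes (72.2%), against 50.5% of all genes in the authors' deposited table. By role it was positive for 1 of 5 A-class and 2 of 3 B-class ephrins, 6 of 9 EphA and 5 of 5 EphB receptors, 2 of 3 Slits, 3 of 3 Robo receptors, 2 of 2 netrins and 5 of 6 netrin receptors. Some other lists leaned the same way, with 24 of 30 cytoplasmic effectors (80.0%) positive. So were 8 of 10 crest progenitor and glia markers, 6 of 7 mesenchyme and 5 of 7 macrophage markers. Endothelium had 6 of 10 positive and enteric neurons 6 of 12. Epithelium had 3 of 10, mesothelium 1 of 5 and smooth muscle 1 of 7. A positive coefficient means that the double null level lay above the product of both single null changes. None of these coefficients was called, and the genes share the same 24 guts.

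The guidance genes were also set against the rest of the table. In both genotypes without Ret the changes of the 29 genes lay nearer to 0 than those of the neuron markers, with a lean upward. Their medians were 0.09 in double null and 0.05 in Ret null guts, beside 0.01 for all genes at that level. The extreme 95% bounds of the 29 were -0.92 and 0.67 in double null and -0.66 and 0.42 in Ret null guts. The 12 enteric neuron markers ran from -6.48 to -1.03 in double null and from -6.28 to -0.94 in Ret null guts by the authors' deposited tables. The change of every one of the 29 was above that of the least changed neuron marker. The lowest of the 29 was -0.42 in double null and -0.30 in Ret null guts, though in double null guts the interval of Unc5a reached those of the markers. The markers were not cut at that level. Of the 7 guidance genes below it, the lowest change was -0.61 in double null and -0.68 in Ret null guts, both for Epha10. Intervals of several of the 7, among them Epha10 and Dcc in Ret null guts, also reached those of the markers.

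**Figure D4:**
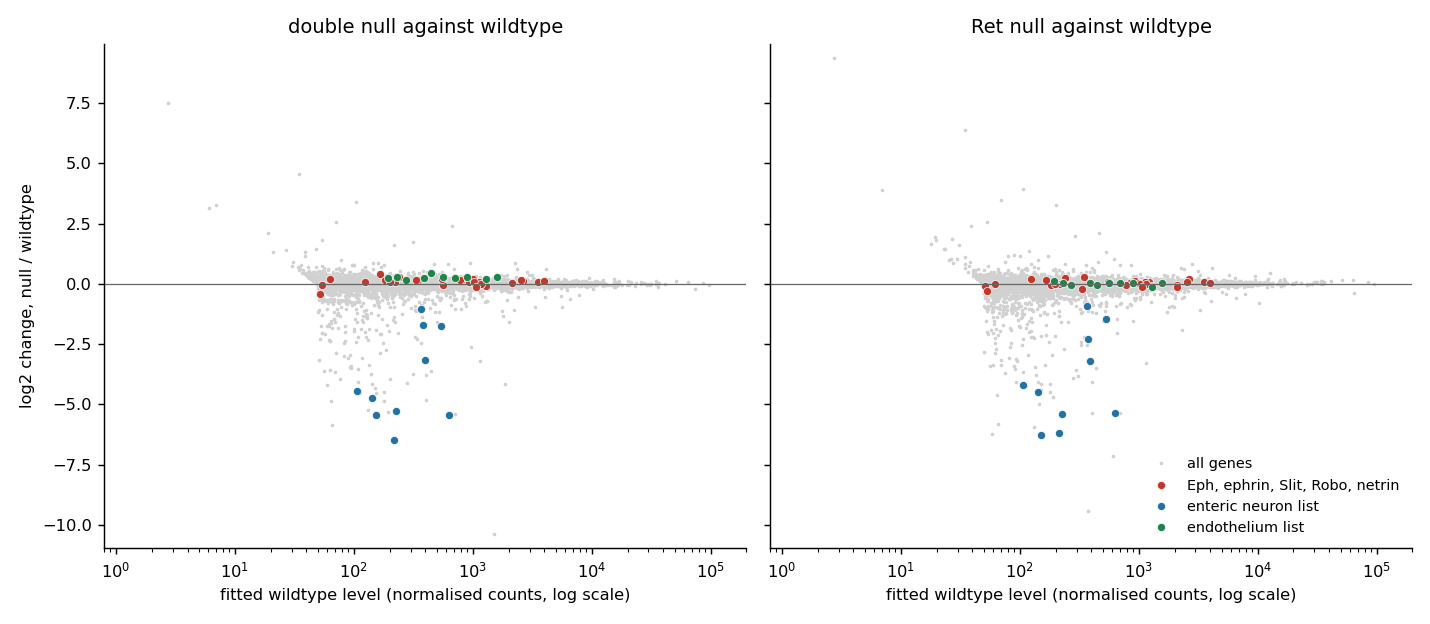
Log2 change against the fitted wildtype level (normalised counts, log scale) for all genes with a level of at least 50 in either genotype, in double null and Ret null guts. The 29 guidance genes (red) have medians of 0.09 in double null and 0.05 in Ret null guts, and the enteric neuron markers at that level (blue) lie below. The endothelial markers (green) have medians of 0.27 in double null and 0.04 in Ret null guts.

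Related guidance genes showed a few falls in the 2 genotypes without Ret. Among other ligands, receptors and membrane partners, 14 of 15 listed genes were in the tables, and Rgmb alone was called (7.14%), beside 1.87% of all genes called lower in double null and 2.27% in Ret null guts. Rgmb, a GPI-anchored ligand of neogenin and co-receptor for BMPs, had a level of 504 in double null, 477 in Ret null, 592 in Sema3d null and 654 in wildtype guts. It fell in double null guts by a log2 change of -0.38 ± 0.08 (adjusted p 0.000367) and in Ret null guts by -0.45 ± 0.08 (adjusted p 4.41e-06) in the authors' deposited tables, with -0.14 ± 0.12 in Sema3d null guts. Its receptor Neo1 was not called in these guts. Median changes of the list were 0.05 in double null, -0.05 in Ret null and -0.02 in Sema3d null guts by the authors' deposited tables.

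Among 30 cytoplasmic effectors of guidance receptors, 2 (6.67%) fell in double null and in Ret null guts and 0 rose, beside 1.87% of all genes called lower in double null and 2.27% in Ret null guts. Trim67, a ubiquitin ligase that binds Dcc in mouse neurons, had a level of 12.1 in double null, 10.8 in Ret null, 76.9 in Sema3d null and 94.3 in wildtype guts. Its change was -2.96 ± 0.22 in double null (adjusted p 3.30e-39), -3.13 ± 0.22 in Ret null (adjusted p 1.13e-42) and -0.29 ± 0.19 in Sema3d null guts, per the authors' deposited tables. Fyn, a Src-family kinase downstream of several guidance receptors, had a level of 739 in double null, 687 in Ret null, 837 in Sema3d null and 881 in wildtype guts. Its change was -0.25 ± 0.06 in double null (adjusted p 0.00235), -0.36 ± 0.06 in Ret null (adjusted p 2.43e-07) and -0.07 ± 0.09 in Sema3d null guts, per the authors' deposited tables. The medians of the 30 were -0.01 in double null, -0.04 in Ret null and -0.06 in Sema3d null guts by the authors' deposited tables. The neuron markers fell in the same 2 genotypes, and their part in the falls of Rgmb, Trim67 and Fyn was not tested.

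Sex was part of every fit and was not tested here. Over the 29 genes the authors' deposited table of all 24 guts gives male over female log2 coefficients from -0.16 for Unc5b to 0.23 for Unc5a, with a median of -0.01. Efnb1, though X-linked, lay inside that range.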

How the data were processed

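RNA from 24 guts was prepared as stranded poly-A libraries, per the labels' protocols. The submitters' processing notes name, without roles, DESeq 1.24.0, RSEM 1.2.31, STAR (no version), Trimmomatic 0.36 and FastQC 0.11.5, and the GRCm38 (mm10) build. The authors deposited 4 tables of model fits: log2 coefficients of each term (intercept, sex, genotype), deviances of the models with and without the tested term (used as a score of fit), and p-values and adjusted p-values of the tested term. They hold no counts per gut, so no count test was run and the likelihood ratio tests were used as deposited; library depth and the spread between guts are unknown, and the labels do not say whether guts shared litters. The log base is not named; base 2 gave fitted wildtype totals below the read depth the protocols aimed at, and the natural base totals far above it.

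The deviance difference, read as chi-square with 1 degree of freedom, gave the deposited p-values to within 4.91e-09. The derived standard error is the size of the coefficient divided by the square root of that difference, and 95% intervals rest on it; the arithmetic was tested on simulated data. The last 2 column headers of the Ret null table are exchanged and were read by content. A level was computed by raising 2 to the intercept of the 24-gut fit, averaging the sexes and applying the change of the genotype; per kb it was divided by the exon union of GENCODE M21 protein-coding transcripts. The 36 genes and all lists were chosen with earlier results of these data known. Called genes were named with values in all tables, with up to 6 further genes per comparison by smallest p at a wildtype level of at least 50. Outside this rule, Epha10, Slit1, Ntn4, Dcc, Unc5a and Unc5b were given single changes after their values were seen. Slit2, Ntn1 and Unc5c, also outside it, were given levels and a range of changes. The rest were given mostly as ranges. Of 8 symbols listed for spinal cord and dorsal root ganglion, 5 were in the tables. Their summed levels were 7.46 in double null, 10.9 in Ret null, 16.5 in Sema3d null and 13.0 in wildtype guts. Of these, Prrxl1 was called lower in double null and Ret null. The macrophage and mesothelium lists had 0 genes called. Alternatives were other thresholds, adjustment over expressed genes, centring of changes, and 24-gut coefficients. Python 3.11.15 with pandas 2.3.3 and scipy 1.17.1 was used.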

Additional observations from a re-analysis of the deposited data

How the results depend on the processing

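Counts of called genes among the 36 moved with the threshold. At an unadjusted p below 0.05 they were 1 lower and 10 higher in double null, 2 lower and 6 higher in Ret null and 1 higher in Sema3d null guts, and 1 negative and 3 positive for the interaction. At an adjusted p below 0.01 the 2 calls in Ret null guts became 0. With adjustment over genes with a level of at least 50, or of at least 10, double null guts had 1 gene higher, Efna1, since fewer genes were tested. The other 30 counts under these alternatives and centring were unchanged. Apart from the 2 higher in Ret null guts, these were counts of 0 that stayed 0, which a stricter threshold could not have raised. Of 22 alternative values of Efna4 and Efnb2, all kept their direction; the 16 with an adjusted p kept their side of the threshold, and the 6 coefficients of the 24-gut fit have none. The median change of genes with a level of at least 50 was at most 0.01 on the log2 scale; centring on it turned 3 coefficients near 0 negative in Ret null guts (Efna5, Ephb6, Unc5d) and 1 in Sema3d null guts (Epha8). The largest difference between 12-gut and 24-gut coefficients of the 29 genes was 0.0144, for Unc5a in double null guts. No paired analysis was possible because the tables hold no values per gut; for the same reason edgeR and leaving out single guts were not run, so whether 1 gut carries a change is unknown. Below a level of 50 the derived errors were wide, up to 2.24 for Robo3 in Ret null guts and 2.28 for its interaction coefficient.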
